A study of Mus musculus with 141 samples.

Results

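The interpeduncular nucleus (IPN), a midbrain nucleus that receives cholinergic input from the medial habenula (MHb), was examined for its microRNAs (miRNAs) in mice 48 h after chronic nicotine was stopped. The 10 libraries compared are the 5 of mice in acute withdrawal (NAWD) and the 5 of control mice (TA), taken by their labels from 75 miRNA libraries, and from 141 libraries of miRNA and mRNA in all. They were 2 of 3 groups in 15 IPN libraries fitted together, the other being mice that still drank nicotine (Nic, 5 libraries). All mice were male C57BL/6J of 6 weeks of age at the start and drank saccharine at 3 g/L throughout. NAWD mice had drunk nicotine tartrate (200 μg/ml of the base) for 6 weeks and then tartaric acid in its place for 48 h, Nic mice had drunk nicotine for the same time without the break, and TA mice had drunk tartaric acid alone. A library pools IPN punches from 4 mice, so the spread within a group is a spread between pools, and the cells of the punch were not separated. In such bulk RNA, fewer cells of a type and less RNA per cell cannot be told apart.

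A miRNA is a short RNA cut by Drosha and Dicer from a hairpin, which can give a mature strand from its 5′ arm (5p) and from its 3′ arm (3p). The mature strand guides an Argonaute protein to messenger RNAs that pair with bases 2 to 8 of the miRNA, called the seed, and lowers their translation and stability. miRNAs of one seed can share targets, and hairpins lying close together are often cut from a common transcript. The withdrawal state at this time point is known for anxiety and other aversive signs in which the IPN takes part.

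The mature strands that the comparison turns on are printed here 5′ to 3′ from RefSeq (GRCm38, the mm10 build to which the reads had been mapped), with the seed in capitals. The first group shares the seed of the miR-17 family, in which miR-106b-5p was the called member.
miR-106b-5p: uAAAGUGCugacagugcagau
miR-93-5p: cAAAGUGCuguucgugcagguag
miR-20a-5p: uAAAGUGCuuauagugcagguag
miR-17-5p: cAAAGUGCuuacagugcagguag
The next strands are 2 pairs that share a seed and were called together, those of the miR-34 family and of miR-27.
miR-34a-5p: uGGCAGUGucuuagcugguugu
miR-34b-5p: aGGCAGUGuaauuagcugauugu
miR-27a-3p: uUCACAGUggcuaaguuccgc
miR-27b-3p: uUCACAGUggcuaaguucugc
The last strands have seeds of their own among the called miRNAs. They are those with a large or steady difference, and the 3 that were lower in NAWD libraries.
miR-540-5p: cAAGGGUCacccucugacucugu
miR-484: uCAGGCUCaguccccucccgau
miR-341-3p: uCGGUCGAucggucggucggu
miR-219a-5p: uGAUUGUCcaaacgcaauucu
miR-126a-3p: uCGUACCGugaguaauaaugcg
miR-339-5p: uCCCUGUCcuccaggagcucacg
miR-129-2-3p: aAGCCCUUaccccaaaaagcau
miR-1843a-3p: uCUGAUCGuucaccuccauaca
miR-1839-5p: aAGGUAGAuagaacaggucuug
Of the 45 miRNAs called, 40 matched an entry of this table by name. The strands of miR-199a-3p and miR-199b-3p have the same letters, so the reads of one cannot be told from those of the other, and both calls rest on one measurement.

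Reads assigned to miRNAs numbered 13478993 to 20003529 per library in NAWD mice, 7334488 to 11595725 in Nic mice and 6459074 to 12393851 in TA mice. Every NAWD library was deeper than every TA library, so depth and withdrawal cannot be told apart by group, and 1135 to 1211 miRNAs were above 0 in NAWD libraries against 1024 to 1120 in TA libraries. One TA pool (replicate 5) stood apart. It held 976 reads per 1000000 miRNA reads (RPM) of miR-200a-3p and 1131 RPM of miR-183-5p, where the other TA pools held 9.28 to 56.4 and 10.2 to 38.4 RPM. The NAWD pool numbered 4 held 74.3 and 64.0 RPM of the same miRNAs. Leaving out both pools gave 43 higher and 4 lower calls. In mRNA of the same pools 6 markers of the IPN and of GABA neurons summed to 1366 to 2872 TPM (share of transcripts, scaled by gene length) in NAWD and 1169.6 to 2036 TPM in TA libraries, with 0 of 6 called. Most of that sum was Sst, at 1149 to 2531 TPM in NAWD and 973 to 1579 TPM in TA libraries. Gad1 ran lower, at 46.0 to 143 TPM in NAWD and 96.3 to 232 TPM in TA libraries, with overlap. So did Gad2 (7.94 to 18.4 TPM in NAWD and 15.6 to 31.3 TPM in TA libraries) and Nos1 (7.83 to 17.0 and 14.2 to 29.4 TPM). The NAWD values of Slc32a1 and Chrna5 lay within the TA range. The 7 MHb markers summed to 28.1 to 57.3 TPM in NAWD and 33.9 to 43.6 TPM in TA libraries, with 0 of 7 called, and among them the acetylcholine genes Chat and Slc5a7 were under 1 TPM in every library.

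At 48 h most of the IPN miRNAs that differed were higher on the RPM scale. Of 1907 miRNAs listed, 970 were tested, and 42 were higher and 3 lower in NAWD than in TA libraries, or 4.64% of those tested (4.33% higher and 0.309% lower). A call needed an adjusted p under 0.01 in limma with Benjamini-Hochberg adjustment, on log2(RPM + 1) with 4 factors of unwanted variation. The added 1 makes a fold change of a low miRNA smaller than that of its RPM. The called-higher miRNAs differed by 0.38 to 1.27 on the log2 scale, with a median of 0.65, whereas the median of all tested miRNAs was 0.06. At an unadjusted p under 0.05 there were 189 higher and 57 lower.

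The called miRNAs lay in the middle of the abundance range. None of 316 miRNAs with a mean under 1 RPM was called, 3 of 238 between 1 and 10 RPM were, 12 of 178 between 10 and 100 RPM, 23 of 151 between 100 and 1000 RPM (15.2%) and 7 of 87 over 1000 RPM (8.05%). Together the called-higher miRNAs made up 3.79% of miRNA reads in NAWD libraries and 2.43% in TA libraries. The values of 129 tested miRNAs (13.3%) did not overlap between NAWD and TA libraries, with 110 above and 19 below. Of the called, 30 higher and 2 lower were among them.

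**Figure D1:**
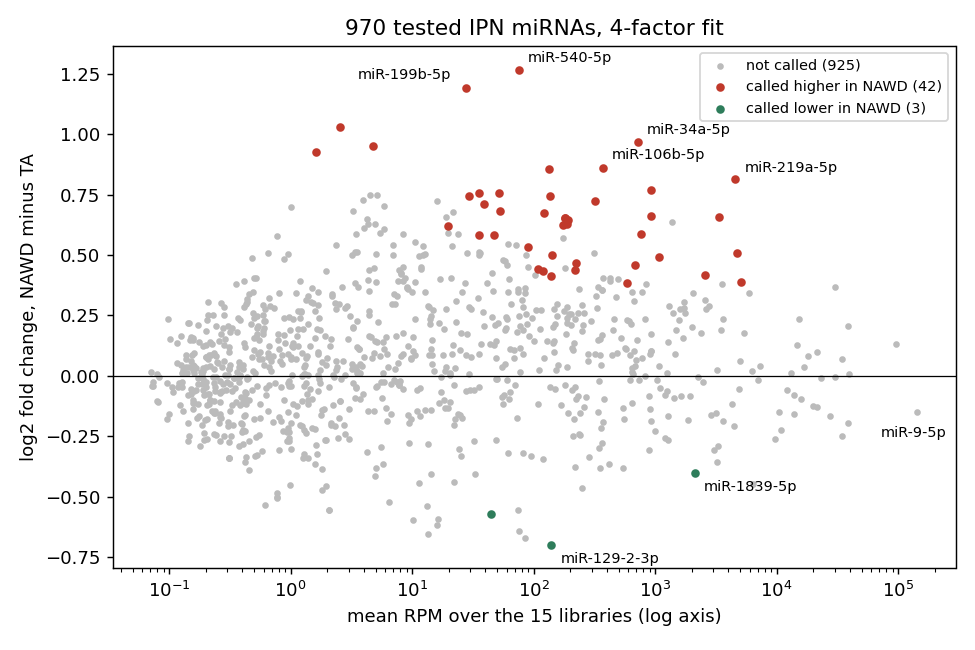
Log2 fold change of NAWD over TA libraries (vertical axis) against the mean RPM of the 15 libraries (horizontal log axis), one point per tested miRNA, with the 42 called higher in red, the 3 called lower in green and the others in gray. Red points lie between 0.38 and 1.27, and most have a mean over 10 RPM.

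The steadiest difference was that of miR-106b-5p, a miR-17 family member of the kind that restrains cell-cycle inhibitors, cut from an intron of the replication gene Mcm7 (chr5:138165787-138165807, minus strand). It ran at 551, 555, 548, 583 and 531 RPM in NAWD libraries, against 265, 296, 343, 264 and 299 RPM in TA libraries. All NAWD pools lay above all TA pools, by more than the whole spread of either group (log2 fold change 0.86, SE 0.11, adjusted p = 2.52e-05, limma with Benjamini-Hochberg). The same strand gave 237 to 317 RPM in Nic libraries, so the high values were seen in NAWD libraries alone among the 3 groups.

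The largest fold was that of miR-540-5p, of the imprinted Dlk1-Dio3 region on chromosome 12 (chr12:109586085-109586107, plus strand), at 132 ± 30.7 RPM in NAWD and 43.8 ± 7.64 RPM in TA libraries (SD, n = 5 each; log2 fold change 1.27, SE 0.16, adjusted p = 2.52e-05). Next came miR-199b-5p, a strand of a hairpin antisense to the dynamin gene Dnm1 and known from mesenchymal cells, with 52.5, 45.8, 55.2, 39.5 and 43.4 RPM in NAWD libraries and 10.8, 17.4, 26.9, 15.7 and 21.7 RPM in TA libraries (log2 fold change 1.19, SE 0.18, adjusted p = 0.000234). Neither set of values overlapped its controls, although the smallest NAWD value of miR-540-5p, 90.8 RPM, was well under the largest, 165 RPM.

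A p53-responsive miRNA, miR-34a-5p (chr4:150068473-150068494, plus strand), measured 951, 706, 1087, 1104 and 1194 RPM in NAWD libraries, against 426, 459, 878, 429 and 601 RPM in TA libraries (log2 fold change 0.97, SE 0.13, adjusted p = 2.52e-05). Here the groups overlapped, since the TA pool numbered 3 lay above one NAWD pool. In contrast, miR-484 (chr16:14159630-14159651, plus strand), which starts at the promoter of the Nde1 gene and is made without Drosha, gave 180.2, 186, 178, 209 and 191 RPM in NAWD libraries and 88.5, 89.9, 87.2, 103 and 116 RPM in TA libraries, with no overlap (log2 fold change 0.86, SE 0.11, adjusted p = 2.52e-05). Among the abundant strands, miR-126a-3p of endothelium, cut from an Egfl7 intron (chr2:26591402-26591423, plus strand), measured 4078, 4421, 4384, 4140.1 and 4626 RPM in NAWD libraries, against 2688, 3120.0, 2370.5, 2498 and 3772 RPM in TA libraries (log2 fold change 0.66, SE 0.12, adjusted p = 0.00109). Its groups were likewise apart.

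Called at like sizes were miR-341-3p (1236 ± 134 RPM in NAWD and 743 ± 185 RPM in TA libraries, log2 fold change 0.77), miR-700-3p (71.3 ± 4.45 RPM in NAWD and 39.9 ± 5.35 RPM in TA libraries, 0.76 on the same scale) and miR-339-5p (447 ± 63.7 RPM in NAWD and 241 ± 38.9 RPM in TA libraries, 0.72). In all 3 every NAWD value exceeded every TA value. One NAWD pool of miR-339-5p, at 334 RPM, lay apart from the other 4 at 466 to 487 RPM. The rest of the 15 largest differences with a mean of at least 10 RPM were miR-879-5p (0.76 on the log2 scale), miR-143-5p (0.74), miR-34b-5p (0.74), miR-450a-5p (0.71), miR-99a-3p (0.68) and miR-199a-5p (0.67), besides miR-219a-5p, which is described with the cell types. Without the factors miR-143-5p, miR-450a-5p, miR-99a-3p and miR-199a-5p did not pass (adjusted p = 0.0144, 0.148, 0.0164 and 0.267, limma), and 27 of the 45 passed in both fits.

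**Figure D2:**
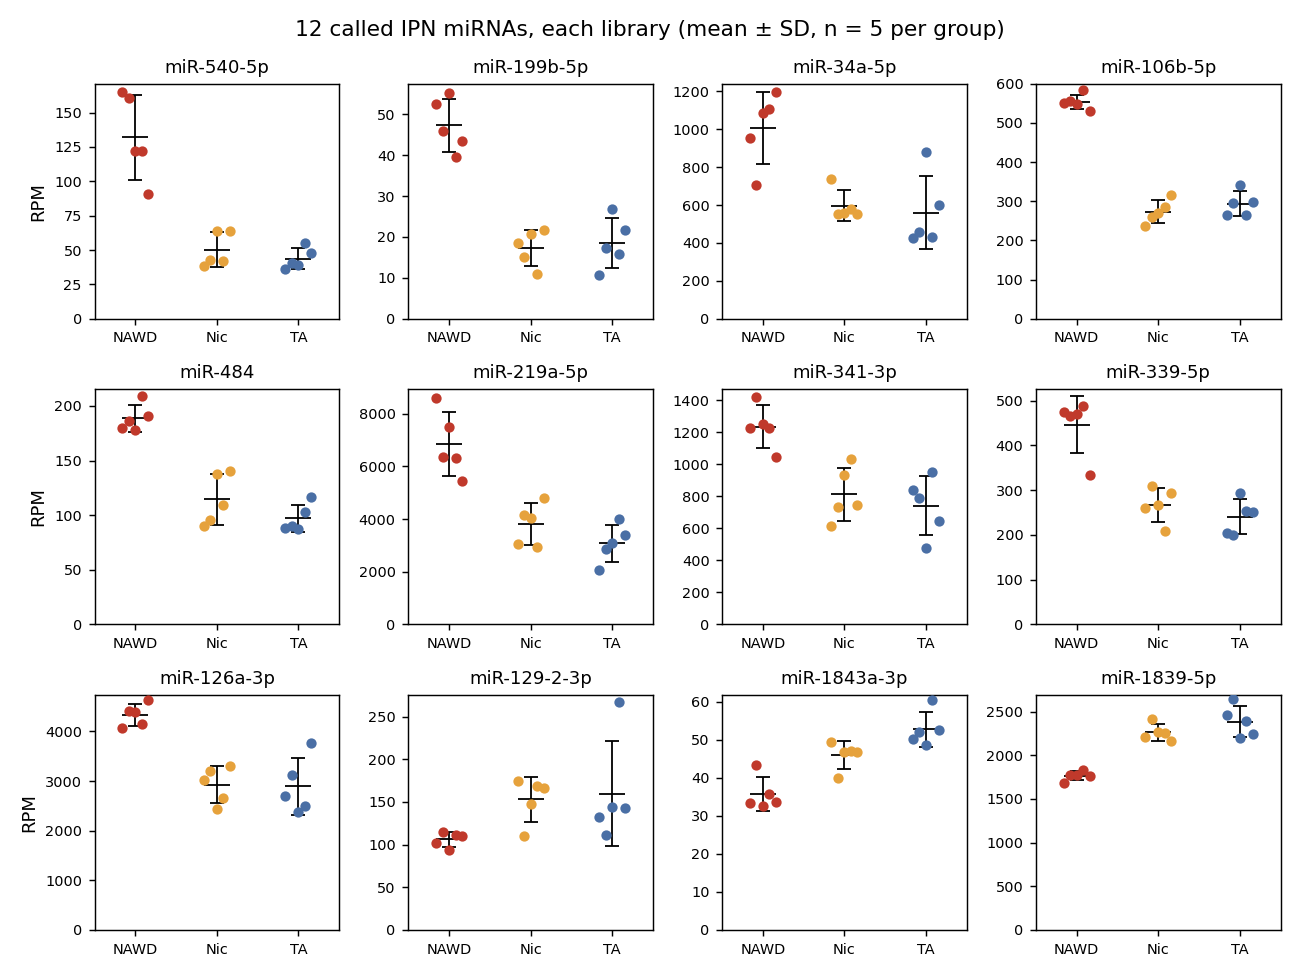
RPM (vertical axes, from 0) of 12 called miRNAs in each NAWD, Nic and TA library, with bars for mean ± SD (n = 5 per group). For miR-106b-5p the NAWD points at 531 to 583 RPM sit above all Nic and TA points, and for miR-129-2-3p one TA point at 267 RPM lies far above the rest of its group.

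The 3 miRNAs called lower came next. The brain-enriched strand miR-129-2-3p measured 102, 115, 93.4, 111 and 109.9 RPM in NAWD libraries, against 132, 112, 144, 267 and 143 RPM in TA libraries, and these groups overlapped (log2 fold change -0.70, SE 0.16, adjusted p = 0.00776). It did not pass without the factors (adjusted p = 0.0795, limma). For miR-1843a-3p the values were 33.3, 43.3, 32.5, 35.8 and 33.7 RPM in NAWD libraries and 50.2, 52.1, 48.6, 60.4 and 52.5 RPM in TA libraries, with no overlap (log2 fold change -0.57, SE 0.12, adjusted p = 0.00531). The abundant miR-1839-5p stood at 1684, 1776, 1772, 1835 and 1768 RPM in NAWD libraries, against 2461, 2647, 2197, 2388 and 2243 RPM in TA libraries, also without overlap (log2 fold change -0.40, SE 0.08, adjusted p = 0.00272).

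The split between higher and lower calls changed with the scaling and the fit. RPM is a share of a library, so a change of an abundant miRNA moves all others, and the 10 miRNAs most abundant in TA mice took 49.3% of reads in NAWD against 52.0% in TA libraries. The rest was thereby raised by 0.08 on the log2 scale. Quantile normalization gave 27 higher and 23 lower calls, edgeR on the recovered reads with 4 factors 27 and 16, and DESeq2 26 and 27, and 26, 30 and 29 of these were among the 45. Higher calls were therefore 54.0, 62.8 and 49.1% of all calls under these settings, against 93.3% in the reported fit. In edgeR without factors they were 76.9% (10 higher and 3 lower), and in limma without factors 95.5% (42 higher and 2 lower). The fits differ in more than the scaling, and which part moved the split was not tested. None of the 45 called miRNAs changed direction in the alternatives run for it, which were 34, or 33 for miR-341-5p, miR-3093-5p and miR-511-3p. Depth could not be separated: with the log of the read number as a covariate and no factors, an alternative added after the data were seen, miR-106b-5p alone passed (adjusted p = 0.00583, limma).

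**Figure D3:**
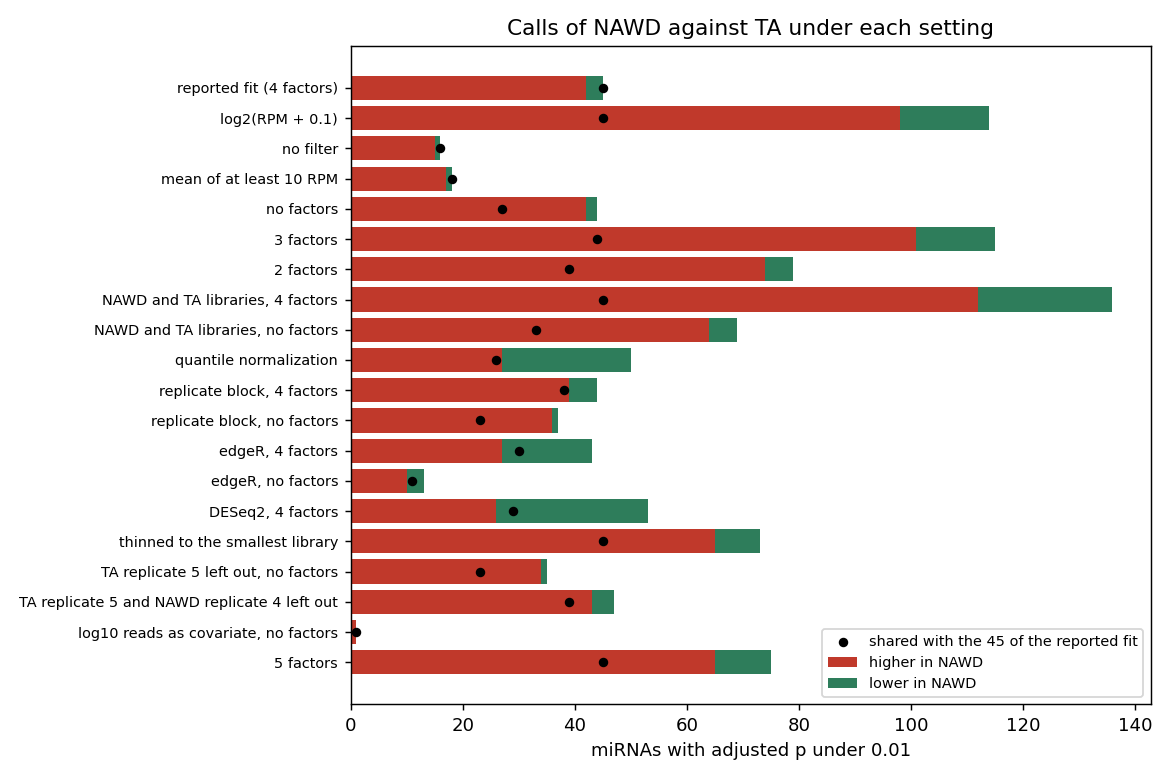
Number of miRNAs called at an adjusted p under 0.01 (horizontal axis) in the reported fit and each alternative, split into higher (red) and lower (green) in NAWD, with a black dot for the number shared with the 45 of the reported fit. The bars run from 1 call with read number as covariate to 136 with NAWD and TA libraries alone and 4 factors.

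Families and clusters are read beside all 970 tested miRNAs, of which 60.2% had a positive log2 fold change and 4.33% were called higher. By seed, the called miRNAs with a matched sequence fell mostly into groups of their own, with 3 seeds called more than once. The seed GGCAGUG of the miR-34 family, known for p53 response and neuronal maturation, was held by 4 tested strands with a matched sequence (miR-34a-5p, miR-34b-5p, miR-449a-5p and miR-449c-5p), all of positive log2 fold change, of which miR-34a-5p and miR-34b-5p passed. Its strand miR-34b-5p measured 43.9 ± 7.47 RPM in NAWD and 23.5 ± 9.82 RPM in TA libraries, and the family member miR-34c-5p, which had no matched sequence, 901 ± 40.2 RPM in NAWD and 670.2 ± 50.4 RPM in TA libraries (log2 fold change 0.35, adjusted p = 0.0138). The wider list, which adds miR-34c-5p and 3p arms, had 8 of 8 tested strands positive, 2 of them called, with a median of 0.26 against 0.06 for all tested miRNAs.

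In the miR-17 family all 6 tested strands were positive, with a median of 0.41, but miR-106b-5p alone passed. The next by adjusted p was miR-20a-5p (94.4 ± 13.2 RPM in NAWD and 62.7 ± 9.99 RPM in TA libraries, adjusted p = 0.018). The other strands of the miR-106b hairpin and its cluster differed less. Its opposite arm miR-106b-3p had 199.6 ± 21.4 RPM in NAWD and 179 ± 27.8 RPM in TA libraries, miR-93-5p had 734 ± 49.6 RPM in NAWD and 735 ± 63.0 RPM in TA libraries and miR-25-3p had 619 ± 69.9 RPM in NAWD and 689 ± 83.3 RPM in TA libraries. Their log2 fold changes of 0.24, 0.15 and 0.21 did not pass, and turned negative in edgeR without factors (-0.00165, -0.16 and -0.31). The cluster had 6 of 6 strands positive in the reported fit, with a median of 0.23 that fell to -0.08 in that edgeR fit. The miR-17-92 cluster, which holds other members of the family, had 6 of 8 positive, 0 called and a median of 0.32.

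The 3p strands of the miR-23/27/24 clusters, expressed in endothelium among other cells, were positive in 5 of 5 and called in 3, with a median of 0.39. The opposite arms miR-27a-5p and miR-27b-5p were negative (-0.048 and -0.16) and did not pass. Values of miR-27a-3p were 965, 1198, 1229, 1156 and 1063 RPM in NAWD libraries and 778, 729, 874, 739.6 and 827 RPM in TA libraries (log2 fold change 0.66, SE 0.11, adjusted p = 0.000325). For the more abundant miR-27b-3p of the same seed they were 5916 ± 394 RPM in NAWD and 4621 ± 304 RPM in TA libraries (log2 fold change 0.39), and for miR-24-3p 849 ± 107 RPM in NAWD and 570.1 ± 46.8 RPM in TA libraries (0.46). The groups of these 3 strands did not overlap, while those of miR-23a-3p did, with 509 RPM in one TA pool.

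In the miR-15/16 family, which restrains cyclins, 8 of 8 tested strands were positive and 2 were called, with a median of 0.15 against 0.06 for all tested miRNAs. The called strands were miR-497a-5p (254 ± 27.6 RPM in NAWD and 162 ± 86.8 RPM in TA libraries) and miR-503-5p (25.9 ± 2.23 RPM in NAWD and 15.97 ± 2.84 RPM in TA libraries), whereas the abundant miR-16-5p had 409 ± 14.4 RPM in NAWD and 351 ± 52.9 RPM in TA libraries and a log2 fold change of 0.17. In the X-linked cluster of miR-322 and miR-503, 10 of 12 were positive and 2 called, with a median of 0.26.

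The Dlk1-Dio3 region, an imprinted domain whose maternal chromosome carries one of the largest miRNA groups of the genome, had 102 tested strands. Of these 63 were positive (61.8%) and 5 called higher (4.90%), shares near the 60.2% and 4.33% of all tested miRNAs. The called strands were miR-540-5p, miR-341-3p, miR-341-5p, miR-329-5p and miR-337-5p. The median of 0.11 became -0.01 under quantile normalization and 0.22 without factors, where that of all tested miRNAs was 0.09. In 20 of the 102 strands all NAWD values lay above all TA values, and in 0 all lay below. Over all 970 tested miRNAs these counts were 110 and 19. The strands of the region did not all move in one direction. At miR-329 the 5p strand measured 990.4 ± 56.4 RPM in NAWD and 635 ± 93.0 RPM in TA libraries, while the 3p strand had 8.50 ± 0.750 RPM in NAWD and 11.1 ± 4.22 RPM in TA libraries and a log2 fold change of -0.60. Likewise miR-136-5p had 213 ± 25.03 RPM in NAWD and 257 ± 52.4 RPM in TA libraries (log2 fold change -0.47, adjusted p = 0.0161).

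Over the hairpins of called miRNAs, 30 pairs had both arms tested and both with a matched sequence. The same pair at several hairpins counted once, and miR-24-3p was paired with each of its opposite arms. Hairpins with an arm that had no matched sequence were left out, among them miR-126a, miR-151 and the locus of miR-219a-2-3p. There miR-126a-5p had a log2 fold change of 0.09, miR-151-3p of -0.27 and miR-219a-2-3p of -0.45, each opposite a strand called higher. The opposite arm had the same sign in 23 pairs and was itself called in 3, with a median of 0.23. At miR-540 the 3p arm measured 35.7, 31.7, 27.3, 36.9 and 33.2 RPM in NAWD libraries and 21.7, 22.2, 22.6, 23.4 and 20.96 RPM in TA libraries, which did not overlap but did not pass (log2 fold change 0.38, adjusted p = 0.0746). The called strand miR-99a-3p, at 67.6 ± 9.09 RPM in NAWD and 43.9 ± 8.50 RPM in TA libraries, was the minor arm of a hairpin whose 5p arm averaged 14765 RPM over the 15 libraries.

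RNA over 30 nt of the same pools allowed genes listed as hosts of the called miRNAs to be read. Ptprn and Ptprn2 were both listed for miR-153-3p, whose 1 matched locus is on chromosome 12. Dnm3os, listed for miR-199a, averaged 0.034 TPM in NAWD and 0.038 TPM in TA libraries, too low to show a change. Of 11 such genes 0 were called higher and 1 lower, where 22 of 18028 genes tested (0.122%) were called in limma with 2 factors, and 3 of the 11 had an unadjusted p under 0.05. The called gene was Rian, the maternally expressed long noncoding RNA from which miR-341 is cut, at 141, 153, 198, 101 and 117 TPM in NAWD libraries, against 768, 897, 322, 405 and 596 TPM in TA libraries (log2 fold change -1.07, SE 0.15, adjusted p = 0.00472). All NAWD pools were below all TA pools for the host, and above them for both strands of miR-341. The call on Rian was lost on leaving out any one of 11 of the 15 libraries (all but NAWD replicates 3 and 4, TA replicate 2 and Nic replicate 1). Mcm7, the host of miR-106b, averaged 4.49 ± 0.904 TPM in NAWD and 6.03 ± 1.64 TPM in TA libraries, and Egfl7, the host of miR-126a, 40.8 ± 10.998 TPM in NAWD and 76.3 ± 22.2 TPM in TA libraries. Their fitted log2 fold changes, after the factors, were 0.22 and -0.23, and neither passed.

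**Figure D4:**
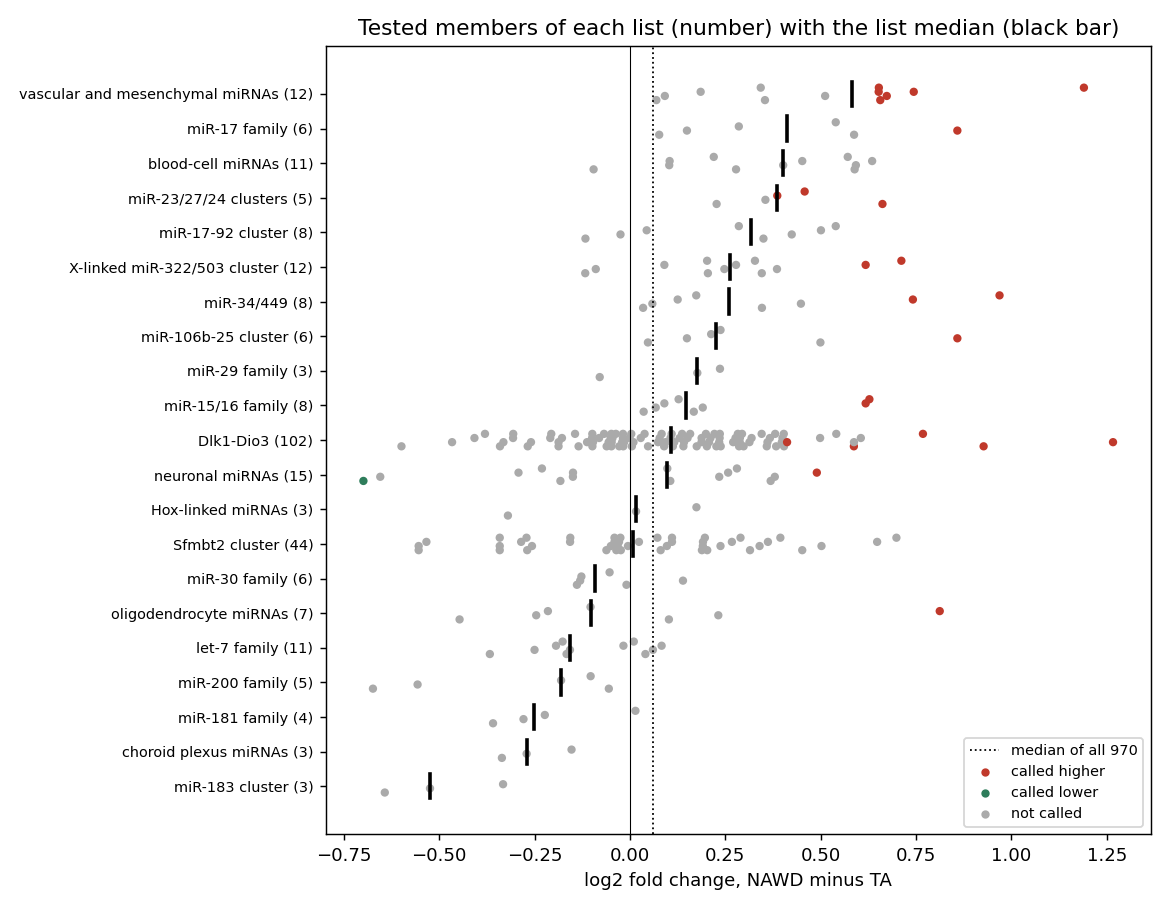
Log2 fold change of NAWD over TA (horizontal axis) for every tested member of 21 miRNA lists, with the number tested in parentheses, a black bar for each list's median, red and green points for called members and a dotted line at 0.06, the median of all 970. The vascular and mesenchymal list sits furthest to the right, at a median of 0.58, and the miR-183 cluster furthest to the left.

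Lists of miRNAs typical of cell types were then read. Of 12 tested strands known from vessels and mesenchyme all were positive and 6 were called, where 60.2% of all tested miRNAs were positive and 4.33% called higher, with a median of 0.58 in the reported fit and 0.27 in edgeR without factors. The called strands were miR-126a-3p, miR-143-5p and the 4 strands of miR-199a and miR-199b, of which the 3p strands are one measurement. The most abundant strand of the list, the smooth-muscle miRNA miR-143-3p, had 32054 ± 5742 RPM in NAWD and 34192 ± 4148 RPM in TA libraries. Its log2 fold change of 0.07 in the reported fit became -0.10 without factors, while the others of the list stayed positive. The strand miR-126a-5p had 976 ± 165 RPM in NAWD and 918 ± 145 RPM in TA libraries. In mRNA of the same pools the endothelial markers Cldn5, Pecam1 and Flt1 summed to 53.3 to 194 TPM in NAWD and 219 to 535 TPM in TA libraries, with 0 of 3 called. Their part in the miRNA result was not tested.

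Of 7 tested strands typical of oligodendrocytes, the myelin-forming cells, 3 were positive and 1 was called, with a median of -0.10 that turned to 0.061 with 3 factors and to 0.11 at a mean of at least 10 RPM. The called strand was miR-219a-5p, which promotes oligodendrocyte differentiation and is cut from 2 loci. It measured 8604, 6373, 7491, 6316 and 5457 RPM in NAWD libraries, against 2074, 2879, 3095, 3987 and 3398 RPM in TA libraries, without overlap (log2 fold change 0.81, SE 0.15, adjusted p = 0.00119). Opposite to it lay miR-219a-2-3p, the 3p strand of one of these loci, at 5915, 5088, 5491, 5509 and 5156 RPM in NAWD libraries and 6655, 6889.7, 7075, 7421 and 5291 RPM in TA libraries (log2 fold change -0.45, SE 0.11, adjusted p = 0.0138). In mRNA of the same pools the myelin gene Mbp ran at 671 to 2005 TPM in NAWD and 3314 to 6609 TPM in TA libraries, without overlap (adjusted p = 0.133, limma). The myelin gene Mog ran at 22.5 to 31.4 TPM in NAWD and 33.1 to 44.0 TPM in TA libraries, and Mobp at 141 to 190.0 TPM in NAWD and 157 to 193 TPM in TA libraries. None of these 3 was called, and their part in the miRNA values was not tested.

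Neuronal miRNAs split. Of 15 tested, 8 were positive, 1 was called higher (miR-153-3p) and 1 lower (miR-129-2-3p), and the median of 0.10 became -0.03 without factors. The neuronal miRNA miR-124-3p measured 35096, 35464, 32169, 37593 and 37028 RPM in NAWD libraries and 22338, 21293, 20790, 27811 and 25375 RPM in TA libraries, which did not overlap, with an adjusted p of 0.0396 (log2 fold change 0.37). The dendritic-spine miRNA miR-138-5p gave 1057 ± 143 RPM in NAWD and 683 ± 133 RPM in TA libraries (adjusted p = 0.0124). In turn miR-9-5p, the most abundant miRNA of these libraries and a regulator of neural progenitors, measured 131080, 124171, 134149, 127126 and 125328 RPM in NAWD libraries and 164333, 171522, 143933, 153564 and 144869 RPM in TA libraries. Its NAWD values lay below all TA values, yet it did not pass (log2 fold change -0.15, adjusted p = 0.383), and under quantile normalization its sign turned (0.076).

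The let-7 family, which accumulates as neurons mature, took 149046 to 157283 RPM in NAWD libraries and 162502 to 184409 RPM in TA libraries, so its summed values did not overlap. Nevertheless 0 of 11 strands were called, at a median of -0.16 that turned to 0.041 without NAWD replicate 3. Its strand let-7f-5p measured 31471 ± 905 RPM in NAWD and 39028 ± 1733 RPM in TA libraries (log2 fold change -0.25, adjusted p = 0.0785). The miR-181 family had 3 of 4 strands negative and 0 called, with a median of -0.25, led by miR-181b-5p at 2792 ± 253 RPM in NAWD and 3384 ± 184 RPM in TA libraries (adjusted p = 0.0147). The miR-30 family had 5 of 6 negative (median -0.09, and 0.0086 with a pseudocount of 0.1), and the miR-29 family 2 of 3 positive (0.18), with 0 called in either.

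Strands of blood cells were positive in 10 of 11, with 0 called and a median of 0.40 that became -0.08 in edgeR without factors, while the erythroid markers Hba-a1, Hbb-bs and Alas2 summed to 3033 to 10587 TPM in NAWD and 1219 to 6094 TPM in TA libraries. The choroid plexus list (3 tested, median -0.27, and 0.04 without factors), the Hox-linked list (3 tested, 0.02, and -0.34 without factors) and the Sfmbt2 cluster (44 tested, 22 positive, 0.0094, and -0.11 in DESeq2) had 0 called. Epithelial miRNAs of the miR-200 kind (5 of 5 strands negative) and sensory-cell miRNAs of the miR-183 kind (3 of 3 negative) had 0 called. Their medians of -0.18 and -0.52 became -0.96 and -1.68 without factors, and 0.19 and -0.056 without TA replicate 5. The IPN miRNAs tabulated in earlier work on these same libraries, a list that is no independent evidence, came to 35, with a median of -0.22. Here 6 were positive and 29 negative, the directions tabulated there. All 6 positive strands were called higher, but only 1 of the 29 negative strands was called lower. Of all tested miRNAs 4.33% were called higher and 0.309% lower.

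The Nic means of the called-higher miRNAs were mostly at or below the highest control library. Of the 42 called higher, 32 had a Nic mean at or below the highest TA library, and in 23 every NAWD value was above every Nic value. The counts of 32 and 23 were not taken over all tested miRNAs. Against Nic, 26 of the 42 were also called higher in NAWD, where 57 of 970 tested miRNAs were called in either direction. These comparisons share the libraries of the first, so the values are given beside it and support nothing further. At miR-219a-5p the Nic libraries measured 2938 to 4814 RPM, at miR-34a-5p 554 to 739.5 RPM and at miR-484 90.4 to 141 RPM. At miR-143-5p they measured 108 to 226 RPM, which reached over all NAWD values.

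Whether the difference at 48 h was still there later was asked with pools of mice 4 weeks after nicotine (NLWD) and their own controls of 10 weeks of tartaric acid (TAL). Of 941 miRNAs tested, the difference between NAWD and TA differed from that between NLWD and TAL in 36 (3.83%; 30 larger and 6 smaller at 48 h, limma with Benjamini-Hochberg). Among the 45 called at 48 h, 14 passed this test. The 45 had been chosen on the same NAWD and TA libraries, so their share is not set against the background. A smaller difference at 4 weeks likewise follows in part from that choice. At 4 weeks 35 of the 42 called-higher miRNAs were positive, with a median of 0.15, against 0.016 for all tested miRNAs.

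For miR-484 the NLWD libraries measured 572, 512, 519.7, 588 and 555 RPM and the TAL libraries 499.8, 550.4, 523, 533 and 512 RPM, which overlap. The log2 fold change at 48 h exceeded that at 4 weeks by 0.94 (SE 0.11, adjusted p = 1.87e-05). For miR-106b-5p the values were 825 ± 120.3 RPM in NLWD and 798 ± 64.7 RPM in TAL libraries, and the excess was 0.79 (SE 0.11, adjusted p = 0.000109). For miR-540-5p they were 874, 709, 500.0, 556 and 507 RPM in NLWD libraries and 434, 322, 364, 424 and 562 RPM in TAL libraries, with an excess of 0.92 (SE 0.19, adjusted p = 0.0039). The lower strand miR-129-2-3p had 917 ± 207 RPM in NLWD and 649 ± 131 RPM in TAL libraries, so its difference was -0.94 (SE 0.20, adjusted p = 0.00565). On average, both groups of the 4-week set, controls included, held more of these strands than either group at 48 h. At 48 h miR-106b-5p averaged 554 RPM in NAWD and 293 RPM in TA libraries, and miR-484 189 RPM in NAWD and 97.0 RPM in TA libraries. Why the sets differ in level was not tested. The other called miRNAs past this test were miR-126a-3p, miR-151-5p, miR-328-3p, miR-219a-5p, miR-199b-5p, miR-362-5p, miR-450a-5p, miR-341-3p, miR-700-3p and miR-34a-5p. Without factors 2 miRNAs passed in place of 36.

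The MHb, which sends its axons to the IPN, was sampled from mice of the same groups at 48 h. Of 863 miRNAs tested in both regions, the difference between NAWD and TA differed in 38 (4.40%; 32 larger and 6 smaller in the IPN), and 17 of the 45 called passed. Here too the 45 had been chosen on the IPN difference, so their share is not set against the background. In the MHb 30 of the 42 called-higher miRNAs were positive, with a median of 0.17, against 0.014 for all tested miRNAs. For miR-219a-5p the MHb libraries held 2705, 3319, 3078, 1966 and 3451 RPM in NAWD mice and 4262, 3999, 3863, 3755 and 3229 RPM in TA mice, and the IPN difference exceeded that of the MHb by 1.20 (SE 0.18, adjusted p = 0.000245). For miR-126a-3p they held 2521, 2246, 2465, 2819 and 2974 RPM in NAWD mice and 2644, 2997, 2768, 2870.1 and 3019 RPM in TA mice, with an excess of 0.91 (SE 0.13, adjusted p = 0.000245). For miR-106b-5p the excess was 0.72 (SE 0.11, adjusted p = 0.000245), and for miR-540-5p 1.25 (SE 0.21, adjusted p = 0.000815).

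The other called miRNAs that passed against the MHb were miR-484, miR-423-3p, miR-341-3p, miR-99a-3p, miR-362-5p, miR-24-3p, miR-199b-5p, miR-346-5p, miR-329-5p, miR-153-3p, miR-34a-5p, miR-450a-5p and miR-216a-5p. One of the 45, the strand miR-328-3p, was called in the MHb as well (log2 fold change 0.42, adjusted p = 0.000503, limma), at 6049 ± 136 RPM in NAWD and 4001 ± 140.3 RPM in TA libraries of the IPN. Opposite to miR-219a-5p, the strand miR-219a-2-3p had a smaller difference in the IPN than in the MHb, by -0.60 (SE 0.10, adjusted p = 0.000718). Without factors 24 miRNAs passed in place of 38, and 15 with 2 factors.

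**Figure D5:**
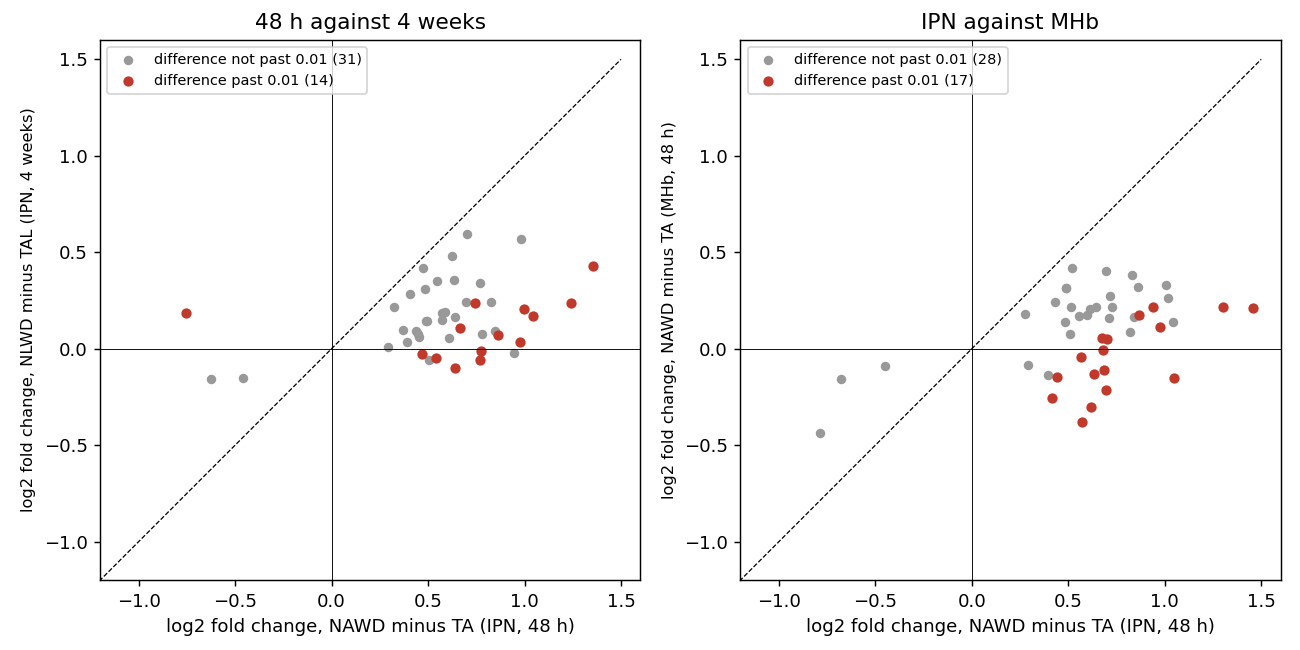
Log2 fold change of the 45 called miRNAs at 48 h in the IPN (horizontal axes) against that at 4 weeks in the IPN (left, vertical axis) and at 48 h in the MHb (right, vertical axis), with a dashed line of equality and red points where the difference passed 0.01 (14 of 45 on the left and 17 of 45 on the right). The 45 were chosen on the horizontal values, and most points of positive value lie below the line.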

How the data were processed

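The study's miRNA libraries were made from RNA of 18 to 30 nt cut from a gel, and the rest of the same RNA gave stranded mRNA libraries. The authors cut adapters with cutadapt 1.11, kept reads 15 to 27 nt long, placed them on mm10 by Bowtie 1.1.2 with no mismatch allowed, counted those near an annotated start, shared out reads of several miRNAs and deposited RPM. For mRNA the authors deposited TPM, made with STAR 2.5.3a and RSEM 1.3.0. The authors also deposited counts of the miRNA reads in each library, and RPM times these totals was a whole number within 0.02 for 100% of values of the 15 IPN libraries. The authors' DESeq2 1.14.1 tables, which hold mean levels, fold changes and FDR, were not used. Some items are not reported here.

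Tests used limma-trend (limma 3.58.1, R 4.3.3) on log2(RPM + 1), 5 libraries per group, at an adjusted p under 0.01 (Benjamini-Hochberg). Testing required a value above 0 in a fraction of 0.5 or more of each group's libraries. The 4 factors of unwanted variation (2 for mRNA) came from differences among libraries of one group, a form assumed here. Alternatives were another pseudocount, other filters, numbers of factors and libraries, quantile normalization, a replicate block, edgeR 4.0.16 and DESeq2 1.42.0 on whole reads, reads thinned to the smallest library, and each library left out. The fits were tested on simulated data. Sequences and positions came from RefSeq (GRCm38), and plots were made with matplotlib 3.10.9 (Python 3.11.15). The members, lists and tests were chosen with earlier results of these data known. Named miRNAs are up to 15 called per direction with the largest change and a mean of at least 10 RPM, the most abundant, those the study names, up to 4 per list, opposite arms and cluster mates, and those past or nearest to passing a test of a difference. Others were named after their values were seen.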

Additional observations from a re-analysis of the deposited data

Results flagged for a closer look

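In 13 of 134 groups of 5 libraries examined, one library lay far from the other 4 of its group. Chance gives about 1 in 20 such groups only where groups are independent and their values evenly spread around a mean. These groups share libraries and hold miRNAs picked by call or name, so the count is not set against that rate. TA replicate 5 held 976 RPM, against 9.28 to 56.4 RPM in the other 4 of its group for miR-200a-3p, and 1131 RPM, against 10.2 to 38.4 RPM in the other 4 for miR-183-5p. NAWD replicate 4 held 74.3 RPM, against 6.39 to 14.1 RPM in the other 4 for miR-200a-3p and 64.0 RPM, against 6.52 to 18.0 RPM in the other 4 for miR-183-5p. TA replicate 3 stood out for miR-497a-5p (316 RPM, against 106 to 139 RPM in the other 4), miR-346-5p (387 RPM, against 505 to 543 RPM in the other 4) and miR-23a-3p (509 RPM, against 270.4 to 327 RPM in the other 4). The remaining cases were single ones. They were miR-339-5p in NAWD replicate 5 (334 RPM, against 466 to 487 RPM in the other 4), miR-34b-5p in NAWD replicate 1 (56.7 RPM, against 38.6 to 43.5 RPM in the other 4), miR-450a-5p in NAWD replicate 3 (67.3 RPM, against 43.1 to 48.1 RPM in the other 4), miR-378a-5p in NAWD replicate 4 (69.7 RPM, against 60.6 to 62.8 RPM in the other 4), miR-129-2-3p in TA replicate 4 (267 RPM, against 112 to 144 RPM in the other 4) and miR-24-3p in TA replicate 5 (651 RPM, against 529 to 558 RPM in the other 4).

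The log2 fold change at 48 h differed from that at 4 weeks past an adjusted p of 0.01 (limma) for miR-484 (0.94), miR-106b-5p (0.79), miR-137-3p (0.85), miR-376b-5p (0.76), miR-126a-3p (0.83), miR-151-5p (0.59), miR-328-3p (0.50), miR-219a-5p (0.88), miR-199b-5p (1.003), miR-540-5p (0.92), miR-362-5p (0.74), miR-129-2-3p (-0.94), miR-450a-5p (0.79), miR-341-3p (0.51), miR-700-3p (0.56) and miR-34a-5p (0.79), where the number is the value at 48 h minus that at 4 weeks. The log2 fold change in the IPN differed from that in the MHb for miR-126a-3p (0.91), miR-219a-5p (1.20), miR-106b-5p (0.72), miR-484 (0.86), miR-219a-2-3p (-0.60), miR-540-5p (1.25), miR-423-3p (0.69), miR-341-3p (0.65), miR-99a-3p (0.92), miR-362-5p (0.80), miR-24-3p (0.61), miR-199b-5p (1.09), miR-346-5p (0.59), miR-329-5p (0.62), miR-153-3p (0.67), miR-34a-5p (0.69), miR-450a-5p (0.95) and miR-216a-5p (0.76), where the number is the IPN value minus that of the MHb. Of these, miR-137-3p, miR-376b-5p and miR-219a-2-3p were not called in the IPN at 48 h. In NLWD libraries miR-137-3p measured 2144, 3927, 475, 2968 and 2994 RPM, against 4168, 3178, 4577, 4749 and 3799 RPM in TAL libraries, and the NLWD pool numbered 3 was the lowest there.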

How the results depend on the processing

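The count of 45 calls moved by more than 1.5 times under several settings. It was 114 with a pseudocount of 0.1, 16 without a filter on low values, 18 with a mean of at least 10 RPM, 115 with 3 factors, 79 with 2 factors, 136 and 69 with NAWD and TA libraries alone (4 factors and none), 13 in edgeR without factors and 73 with reads thinned to the smallest library. Settings added after the data were seen gave 75 calls with 5 factors and 1 with read number as covariate. Leaving out single libraries gave 22 to 85 calls, namely 27, 26, 69, 22 and 73 without TA replicates 1 to 5, 85, 81 and 79 without Nic replicates 1, 2 and 5, and 27 and 22 without NAWD replicates 2 and 3. The labels do not say whether pools of one replicate number are paired. Deviations from the group means of NAWD and TA pools of one number correlated at -0.19, 0.48, 0.07, -0.62 and -0.22 for numbers 1 to 5 across miRNAs, which does not settle it. A block by replicate number gave 44 calls with factors and 37 without.

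Signs turned only for miRNAs not called. For miR-93-5p the value was -0.00101 without factors (all 3 groups, NAWD and TA alone, or with the block), -0.037 after quantile normalization, -0.16 in edgeR without factors and -0.019 without factors and TA replicate 5. For miR-25-3p it was -0.15 without factors (likewise with the block or with NAWD and TA alone), -0.060 with 3 factors, -0.13 with 2 factors, -0.043 with NAWD and TA alone and 4 factors, -0.31 in edgeR without factors and -0.20 without factors and TA replicate 5. It was -0.00165 for miR-106b-3p in edgeR without factors, 0.076 for miR-9-5p after quantile normalization and -0.61 to 0.082 for miR-183-5p with single libraries left out, the highest without TA replicate 5.

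The 36 differences from 4 weeks became 2 without factors, 15 with 2 factors, 12 after quantile normalization, 10 with the replicate block and 18 to 63 with single libraries left out. The 38 differences from the MHb became 19 with a pseudocount of 0.1, 24 without factors, 15 with 2 factors, 16 with the block and 16 to 44 with single libraries left out. For host genes the count of 1 became 2 without factors, 0 with the block and 0 to 1 with single libraries left out. The cause of these changes was not tested. With 5 pools per group and NAWD libraries the deepest, 1 read was worth at most 0.155 RPM.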

Other observations

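The ratio of the 5p to the 3p arm within a hairpin is free of the library total, and it was compared after the values were seen. Of 111 hairpins with both arms at a mean of at least 10 RPM, 8 passed an adjusted p of 0.01 (limma without factors, Benjamini-Hochberg). Of these, 7 had a larger and 1 a smaller share of the 5p arm in NAWD libraries, and all 8 were among the 41 that passed with 2 factors. At miR-106b the ratio was 2.58 to 3.06 in NAWD libraries, against 1.24 to 2.38 in TA libraries. At miR-151 it was 2.74 to 2.97 in NAWD libraries, against 1.64 to 1.90 in TA libraries (log2 change 0.71, adjusted p = 0.000691). At miR-540 it was 2.73 to 5.06 in NAWD libraries, against 1.66 to 2.35 in TA libraries, and at miR-199b 0.163 to 0.323 in NAWD libraries, against 0.0738 to 0.128 in TA libraries. The 3p reads of miR-199b cannot be told from those of miR-199a, so that ratio is not of the miR-199b hairpin alone. The smaller share was that of miR-455, at 0.384 to 0.436 in NAWD libraries, against 0.591 to 0.652 in TA libraries (log2 change -0.60). The others were miR-1843a, miR-369 and miR-143. In 6 of these 7 hairpins with a larger share, the 5p strand or, for miR-1843a, the lower 3p strand was itself among the called miRNAs.

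Base content was compared as a description. Called-higher strands with a mean of at least 10 RPM had a median GC of 50.0% (n = 34), against 47.6% for all tested strands of that level (n = 365), and across these strands the log2 fold change and GC had a Spearman rho of 0.18, or 0.27 without factors. All strands share the same libraries, and no p is given. Chromosome 12, which holds the Dlk1-Dio3 region, had 7 higher and 1 lower call among 120 tested (6.67%), against 4.64% of all tested miRNAs.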
